A study of Saccharomyces cerevisiae with 15 samples.

Results

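The genes described here encode enzymes that attach sugars to proteins in budding yeast, and they were chosen by name. They are the 35 genes of the 6256 on the arrays whose symbol is ALG, OST, PMT, MNN, KTR or OCH followed by a number. They were sorted by prefix into 8 ALG genes (assembly of the lipid-linked sugar), 6 OST genes (the transferase that moves it to protein), 6 PMT genes (O-mannosylation) and 15 MNN, KTR and OCH genes (mannosylation in the Golgi). The series set RNA sequencing methods against reference levels measured on 2 arrays, and of its 15 samples only those arrays were analysed here. Each array held Cy3-labelled total RNA from Saccharomyces cerevisiae BY4741 in YPD and Cy5-labelled genomic DNA named as BY4741. BY4741 is a haploid a-type strain used in many laboratories, with deletions in some biosynthetic genes, and YPD is rich glucose medium. Both arrays form 1 group, so the comparison the design allows is of each gene with the median gene. The DNA strain carries the tag progenitor in another label, and the labels do not give the number of cultures.

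N-glycosylation begins on dolichol, a long lipid of the endoplasmic reticulum membrane, on which the ALG enzymes build a branched oligosaccharide in a fixed order. Oligosaccharyltransferase then moves the finished glycan to asparagine residues of proteins entering the endoplasmic reticulum. PMT enzymes instead add single mannoses to serine and threonine in the same compartment, with dolichol-phosphate mannose as donor. In the Golgi, mannosyltransferases extend both kinds of chain, the N-linked ones into the mannans that coat yeast secreted and cell wall proteins. Mannoproteins form the outer layer of the yeast wall, and much of their mass is sugar.

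The value of a gene is log2(RNA/DNA), the RNA signal at its probe over the DNA signal at the same probe, minus the median over 6250 genes of that array. A value of 1 is thus an RNA/DNA ratio 2 times that of the median gene. Each gene has 1 probe printed as 7 spots, and the ratio is not divided by transcript length. Values after ± are the SD between arrays (n = 2). A gene was called above or below when it lay at least 1 from the median gene with an adjusted p under 0.05 in limma. RNA intensity of the median gene was 1135 and 1390 on arrays 1 and 2, and the floors set from negative control spots were 17.05 and 32.9. Having only 2 arrays limits how precise any value is, and since nothing says that separate cultures were used, the spread behind the p-values may be technical. The strain label was checked against its markers. HIS3, LEU2, MET17 and URA3, deleted in this strain, had DNA intensities of at most 7.39, and a-cell genes MFA1, MFA2 and STE2 were called above while alpha-cell genes STE3, MF(ALPHA)1 and MF(ALPHA)2 were called below. Differences in RNA per cell and in the share of cells with the RNA cannot be told apart in these bulk samples.

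All 35 glycosylation genes were measured on both arrays with all 7 spots, and RNA of each lay above the floor. Of these, 19 were called above the median gene, 0 below and 16 were not called in limma with Benjamini-Hochberg adjustment. That is 54.3% of them, beside 28.2% of all genes called above and 31.2% called below. By adjusted p alone, with no minimum difference, 33 of the 35 differed from the median gene, 30 above it and 3 below, where 47.1% of all genes lay above and 47.2% below. At a minimum difference of 2, 10 were above and 0 below, where 12.4% and 20.4% of all genes were. The median over the 35 genes was 1.30 ± 0.03, with 32 over 0. The lowest RNA intensities, 445 and 590, belonged to KTR2, and the highest, 9113 and 11263, to OST1. The genes spanned 4.03 on the log2 scale, from PMT3 at -0.82 to OST1 at 3.20. Of 6250 genes the values ran from -8.80 to 6.54, so these 35 genes lay within the middle and upper part of the range.

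**Figure D1:**
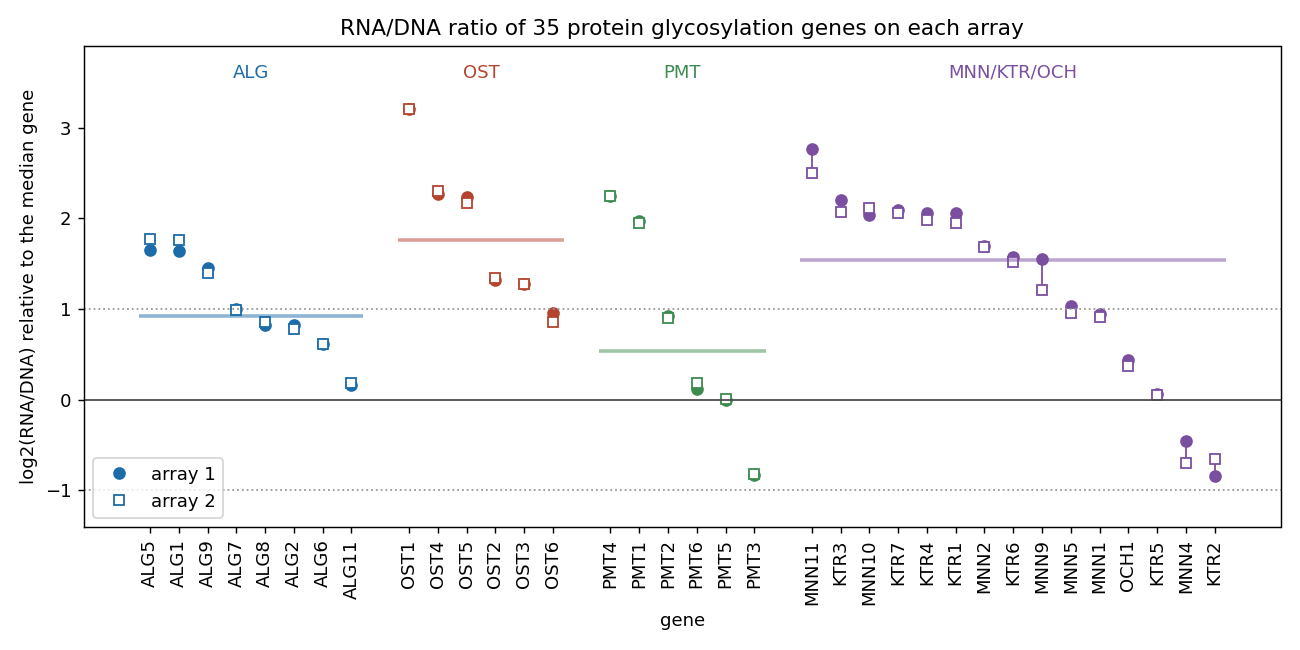
Log2(RNA/DNA) relative to the median gene (vertical axis) of each of the 35 genes, sorted within the 4 groups. Filled circles are array 1, open squares array 2, horizontal bars the group median and dotted lines the threshold of 1 in each direction. OST1 is highest at 3.20, the PMT genes split between PMT4 and PMT1 at 2.25 and 1.96 and the others at 0.91 or less, and 0 genes lie below -1.

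The median of each group lay above the median gene. It was 1.77 ± 0.02 for the OST genes, 1.54 ± 0.04 for the Golgi genes, 0.92 ± 0.01 for the ALG genes and 0.53 ± 0.02 for the PMT genes, beside 0 for all genes. Called above were 5 of 6 OST, 9 of 15 Golgi, 3 of 8 ALG and 2 of 6 PMT genes. These are 83.3%, 60.0%, 37.5% and 33.3%, beside 28.2% of all genes, so the shares of the ALG and PMT genes lay near that of all genes. The SD over genes was smallest for the ALG genes, at 0.54, and largest for the PMT genes, at 1.19. No test was made between groups, because the genes of a group are not replicates. With the RNA channel alone the PMT median became 1.64, above the ALG median of 0.96.

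The ALG genes stood at or moderately above the median gene. ALG5, which makes the dolichol-phosphate glucose that donates the glucoses, was highest at 1.71 ± 0.09. Its RNA intensities were 2453 and 3241, and its ratios were 1.65 on array 1 and 1.78 on array 2. ALG1, which adds the first mannose, followed at 1.70 ± 0.08 with ratios of 1.64 and 1.76. The values of ALG5 and ALG1 overlapped between arrays, so their order is not resolved. ALG9, a mannosyltransferase of the lumenal side, was called above at 1.43 ± 0.03.

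ALG7, which starts the chain by adding a sugar phosphate to dolichol phosphate and is the target of tunicamycin, lay just under the threshold. Its ratios were 0.998 and 0.991. ALG2, which adds mannoses on the cytosolic side, stood at 0.80 ± 0.03, and ALG11, which completes the cytosolic mannose steps, at 0.18 ± 0.02. ALG11 had ratios of 0.16 and 0.19 and was the lowest of the group by ratio, below ALG1 and ALG2, which act just before it. With RNA alone, ALG11 stood at 0.53, above ALG2 at 0.24 and ALG8 at 0.23. The DNA percentile of ALG11 was 65.9, and that of ALG2 15.1. The glucosyltransferases ALG6 and ALG8, which act one after the other in the lumen, stood at 0.61 ± 0.00 and 0.84 ± 0.02. Their difference was -0.21 on array 1 and -0.25 on array 2, with ALG6 the lower. In RNA signal ALG6 was instead 0.69 higher, with a DNA signal 0.91 higher, so the order reverses with RNA alone.

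ALG3, ALG12, ALG13 and ALG14 were on the arrays under older or systematic names, so the symbol rule did not take them. They were matched by RefSeq locus tag. ALG3 (RHK1 in the files), the first lumenal mannosyltransferase, was called below at -1.25 ± 0.05, and ALG14, the membrane anchor of the enzyme that adds the second sugar, at -1.53 ± 0.05. ALG13, the catalytic partner of ALG14, stood at 0.09 ± 0.00, which was 1.66 above ALG14 on array 1 and 1.58 on array 2. In RNA signal the difference was 0.57, and the DNA signal of ALG14 was 0.94 higher. ALG12 (ECM39), a lumenal mannosyltransferase, was called above at 1.03 ± 0.11, with 1.11 on array 1 and 0.95 on array 2, and it was not called with gradient-corrected signals, at 0.98. ALG3 had a DNA signal at percentile 94.6 of all genes, and with the RNA channel alone it stood at 0.13. With these 4 genes the ALG group held 4 called above and 2 below among 12, with a median of 0.82. These are 33.3% and 16.7%, beside 28.2% and 31.2% of all genes, so the share above lay near that of all genes.

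The OST genes had the highest median of the 4 groups. OST1, a lumenal subunit homologous to mammalian ribophorin I, had RNA intensities of 9113 and 11263 and ratios of 3.20 on both arrays. Its mean of 3.20 ± 0.00 is 9.21 times the median gene (adjusted p = 5.15e-05 in limma), at percentile 95.8 of all genes. OST4, a very small membrane protein that links the catalytic subunit to OST3 or OST6, stood at 2.28 ± 0.02, with ratios of 2.27 and 2.30. OST5, a small subunit that pairs with OST1, stood at 2.20 ± 0.05. OST2, homologous to mammalian DAD1, was called above at 1.33 ± 0.01.

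OST3 and OST6 are alternative subunits, related thioredoxin-like proteins of which each complex holds 1. OST3 had RNA intensities of 4263 and 5254 and was called above at 1.28 ± 0.00. OST6 had RNA intensities of 2481 and 2834 and was the OST gene not called, at 0.91 ± 0.07. OST3 exceeded OST6 by 0.32 on array 1 and 0.43 on array 2, or 1.29 times in the RNA/DNA ratio, and the arrays did not overlap. In the RNA signal itself the difference was 0.84, and the DNA signal of OST3 was 0.44 higher.

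The remaining subunits of the complex, which carry other names, lay among the higher OST genes. STT3, the catalytic subunit, stood at 2.23 ± 0.07, WBP1 at 2.47 ± 0.04 and SWP1, homologous to ribophorin II, at 2.24 ± 0.01, and all 3 were called above. Over the 9 genes of the complex, 8 (88.9%, beside 28.2% of all genes) were called above and the median was 2.22. WBP1, OST4, SWP1, STT3 and OST5 occupied positions between 2.20 and 2.47, and SWP1 with STT3 and STT3 with OST5 overlapped between arrays. By ratio OST1 stood 0.74 above WBP1, the next gene, and OST2, OST3 and OST6 lay at least 0.87 below OST5. With RNA alone STT3 was higher than OST1, at 3.10 against 3.01.

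**Figure D2:**
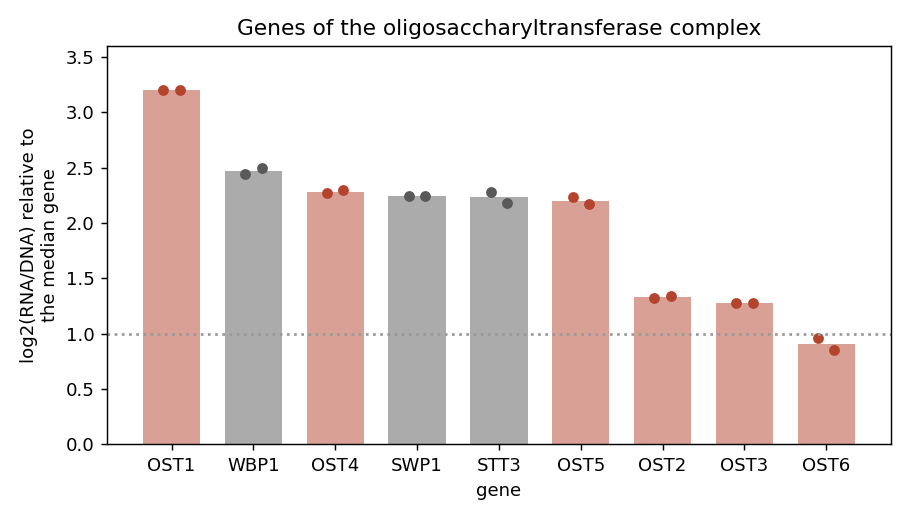
Log2(RNA/DNA) relative to the median gene (vertical axis) of the 9 genes of oligosaccharyltransferase. Bars are means of 2 arrays, points the arrays, red marks genes named OST and grey the other subunits, and the dotted line is the threshold of 1. OST1 is highest at 3.20, and OST2, OST3 and OST6 form the low end at 1.33, 1.28 and 0.91.

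The PMT genes divided by level. PMT4, which works as a homodimer and modifies membrane-bound proteins, was highest by ratio at 2.25 ± 0.00, with RNA intensities of 6861 and 8684. With RNA alone PMT1 stood higher, at 2.83 against 2.62 for PMT4. PMT1, which pairs with PMT2 in the major O-mannosylating complex, followed at 1.96 ± 0.01 with RNA intensities of 7857 and 10193. PMT2 itself had ratios of 0.92 and 0.90 and was not called, at 0.91 ± 0.02. PMT6 stood at 0.15 ± 0.05 and PMT5 at 0.00 ± 0.00, which did not differ from the median gene (adjusted p = 0.949 in limma). PMT3 was the lowest of all 35 genes at -0.82 ± 0.01, with RNA intensities of 959 and 1310. Arrays did not overlap for any neighbours in this order, and PMT4 stood 3.07 above PMT3 on both arrays, or 8.39 times.

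PMT2 gave low ratios for its RNA signal. Its RNA intensities of 6790 and 8220 lay close to those of PMT4, but its DNA intensities of 11192 and 13065 were at percentile 96.3 of all genes. Relative to PMT1, its partner, PMT2 was lower by 1.05 on both arrays in the ratio. In RNA signal the difference between PMT1 and PMT2 was 0.26, and the DNA signal of PMT1 was 0.70 lower. With the RNA channel alone PMT2 was called above at 2.57. Why its DNA signal is high was not tested. PMT5 and PMT3, which can form a complex together, stood lower than PMT1 and PMT2 on either scale, with RNA alone at 0.06 and -0.16. YDR307W, named PMT7 in RefSeq and outside the symbol rule, was called above at 1.34 ± 0.02, but its DNA signal was at percentile 2.05 and its RNA alone stood at 0.08.

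The Golgi genes held both high and low members. OCH1, which starts the outer mannan chain on N-glycans, stood at 0.40 ± 0.04 and was not called, with RNA intensities of 1108 and 1326. The polymerase subunits that lengthen that chain were higher. MNN9, common to both mannan polymerase complexes, was called above at 1.38 ± 0.24, with ratios of 1.56 on array 1 and 1.21 on array 2. Its spread between arrays was the widest of the 35 genes, and with gradient-corrected signals the ratios were 1.38 and 1.20. MNN10 stood at 2.08 ± 0.05 and MNN11 at 2.64 ± 0.19, the second highest of the 35 genes. MNN11 had RNA intensities of 4159 and 4751 and DNA intensities of 2160 and 2447, at percentile 8.0, and with RNA alone it stood at 1.82, below MNN10 at 2.42.

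The branching enzymes differed. MNN2, which adds the first mannose of the side branches, was called above at 1.69 ± 0.01, and MNN5, which adds the next, lay just under the threshold at 0.996 ± 0.05, with 1.03 on array 1 and 0.96 on array 2. MNN2 exceeded MNN5 by 0.66 and 0.72. MNN1, which caps chains with terminal mannose, was not called at 0.93 ± 0.03. KTR6, the transferase that adds mannosylphosphate, was called above at 1.54 ± 0.04, while MNN4, a positive regulator of the same modification, stood at -0.58 ± 0.17. MNN4 had RNA intensities of 647 and 677 and ratios of -0.46 and -0.70. YJR061W, named MNN14 in RefSeq and related to MNN4, was outside the symbol rule and was called below at -1.65 ± 0.01.

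The KTR family, type II membrane mannosyltransferases, split by ratio into 4 genes near 2, KTR6 and a low pair. KTR3 stood at 2.13 ± 0.09, KTR7 at 2.07 ± 0.02, KTR4 at 2.02 ± 0.05 and KTR1 at 2.00 ± 0.08. KTR3 overlapped KTR7 between arrays, and KTR4 overlapped KTR1, so the order within each of these pairs is not resolved. KTR1 and KTR3 take part in extending O-linked chains. KTR5 stood at 0.06 ± 0.01 (adjusted p = 0.155 in limma) and KTR2 at -0.74 ± 0.13, with RNA intensities of 445 and 590. KTR3 exceeded KTR2 by 3.03 on array 1 and 2.72 on array 2, or 7.36 times. The relatives KRE2 and YUR1, which carry other names, stood at 2.95 ± 0.03, called above, and -1.08 ± 0.03, called below. With RNA alone YUR1 was not called, at -0.55, and KTR7 stood at 1.20, below KTR6 at 1.69.

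The ratio and the RNA signal gave different orders for some genes. The DNA signal of the 35 genes ran from percentile 5.50 (KTR7) to 96.3 (PMT2). The median percentile was 27.5 for the ALG genes, 41.4 for the Golgi genes, 61.0 for the OST genes and 74.6 for the PMT genes. With the RNA channel alone 23 genes were called above and 1 below, where 28.9% and 29.9% of all genes were called. PMT2, MNN5, OST6 and ALG7 were the genes called above in addition, at 2.57, 1.71, 1.08 and 1.01. KTR2 was the gene called below, at -1.29. OCH1 changed side, from 0.40 to -0.05, and so did KTR5, from 0.06 to -0.52. Over the 35 genes, the ratio had a Pearson r of -0.04 with the DNA signal and 0.87 with the RNA signal (log2, means of 2 arrays). Over all 5702 genes above the floor these were 0.05 and 0.94. The ratio is made from both signals, so part of its correlation with the RNA signal is built in. These are descriptions over genes that share 2 arrays.

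**Figure D3:**
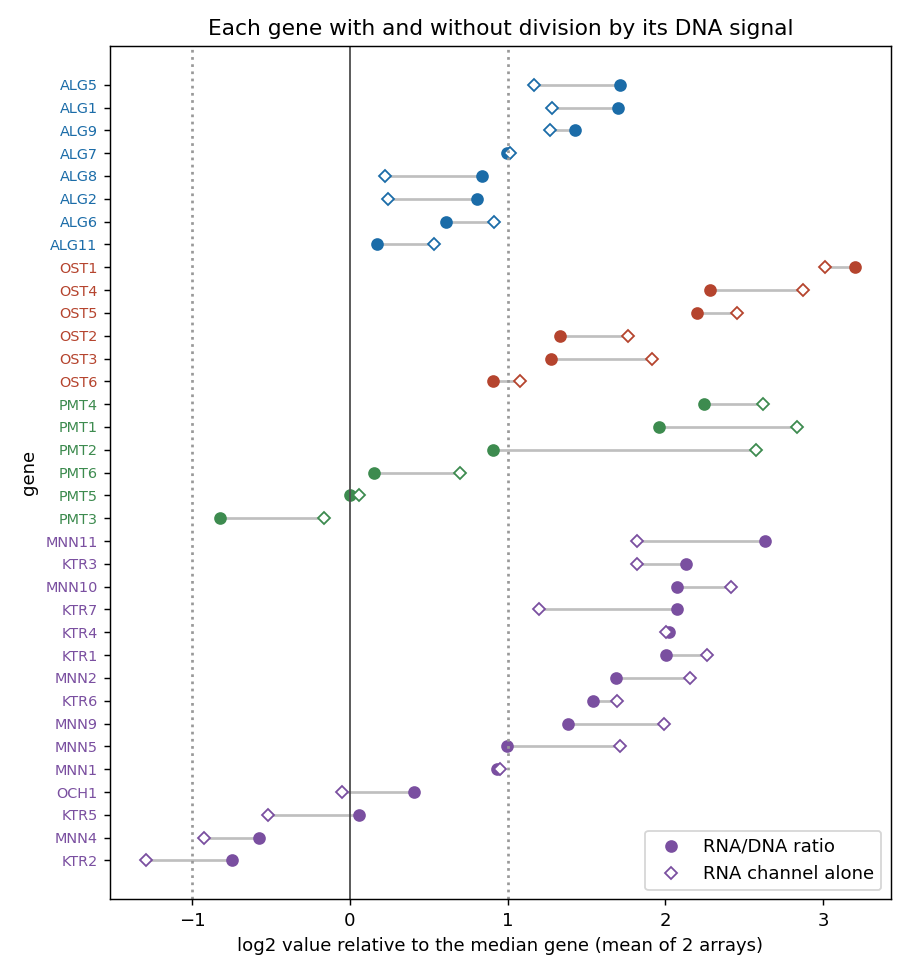
Log2 value relative to the median gene (horizontal axis, means of 2 arrays) of each gene as RNA/DNA ratio (filled circles) and with the RNA channel alone (open diamonds), by group. Dotted lines mark the threshold of 1 in each direction. The longest line is that of PMT2, from 0.91 to 2.57, and MNN11 and KTR7 move the other way, from 2.64 to 1.82 and from 2.07 to 1.20.

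**Figure D4:**
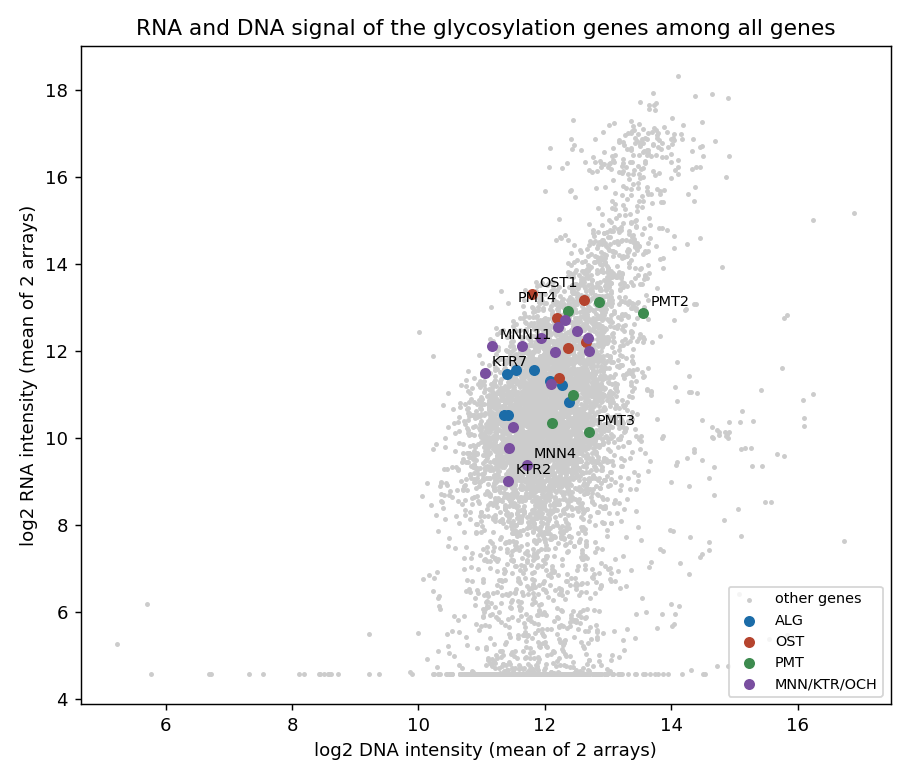
Log2 RNA intensity (vertical axis) against log2 DNA intensity (horizontal axis), means of 2 arrays, for the 35 genes in colour and all other genes in grey. The line of grey points at the bottom is the floor. All 35 genes lie above the floor, PMT2 lies farthest right, and MNN11 and KTR7 lie farthest left.

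The other genes of the pathway gave 18 called above, 3 below and 19 not called among 40. That is 45.0% above and 7.5% below, beside 28.2% and 31.2% of all genes, with which the counts of each list are to be read. Sugar nucleotide supply was high, with 8 of 11 (72.7%) above, 0 below and a median of 1.59. PSA1, which makes the GDP-mannose that all mannosylation draws on, stood at 4.57 ± 0.16, above each of the 35 genes. SEC53, phosphomannomutase, stood at 3.30 ± 0.01, VRG4, the Golgi GDP-mannose transporter, at 2.02 ± 0.00, and GDA1, the Golgi GDPase, at 2.05 ± 0.02. YND1, an apyrase related to GDA1 in function, was not called at -0.42 ± 0.00.

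The dolichol steps were spread widely, with 2 of 9 above and 2 below and a median of 0.13. Both counts are 22.2%, near the shares of all genes. DPM1, which makes dolichol-phosphate mannose, was called above at 1.80 ± 0.01. NUS1 stood at 2.24 ± 0.02, but its DNA signal was at percentile 1.79 and its RNA alone stood at 0.93, which was not called. RER2 and SRT1 encode alternative cis-prenyltransferases that make the dolichol chain. RER2 stood at -0.32 ± 0.05 and SRT1 was called below at -3.48 ± 0.12, with RNA intensities above the floor. DFG10, of the last step of dolichol synthesis, was called below at -1.09 ± 0.08 and stood at -0.21 with RNA alone.

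The other Golgi transferases had 4 of 9 (44.4%) above and 1 (11.1%) below, with a median of 0.84. VAN1, the partner of MNN9 in the first mannan polymerase complex, stood at 1.42 ± 0.08. ANP1 and HOC1, found with MNN9, MNN10 and MNN11 in the second complex, stood at 0.76 ± 0.01 and 1.69 ± 0.03. Genes of glycan trimming and glycan-dependent quality control lay near the median gene, with 1 of 8 (12.5%) above, 0 below and a median of 0.03. ROT2, the catalytic subunit of glucosidase II, was called above at 1.34 ± 0.06, or 0.93 and not called with RNA alone. CWH41, glucosidase I, stood at 0.01 ± 0.03, and at 1.21 and called above with RNA alone. GTB1, the other subunit of glucosidase II, stood at 0.05 ± 0.03. CNE1, the yeast calnexin, stood at -0.30 ± 0.07.

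**Figure D5:**
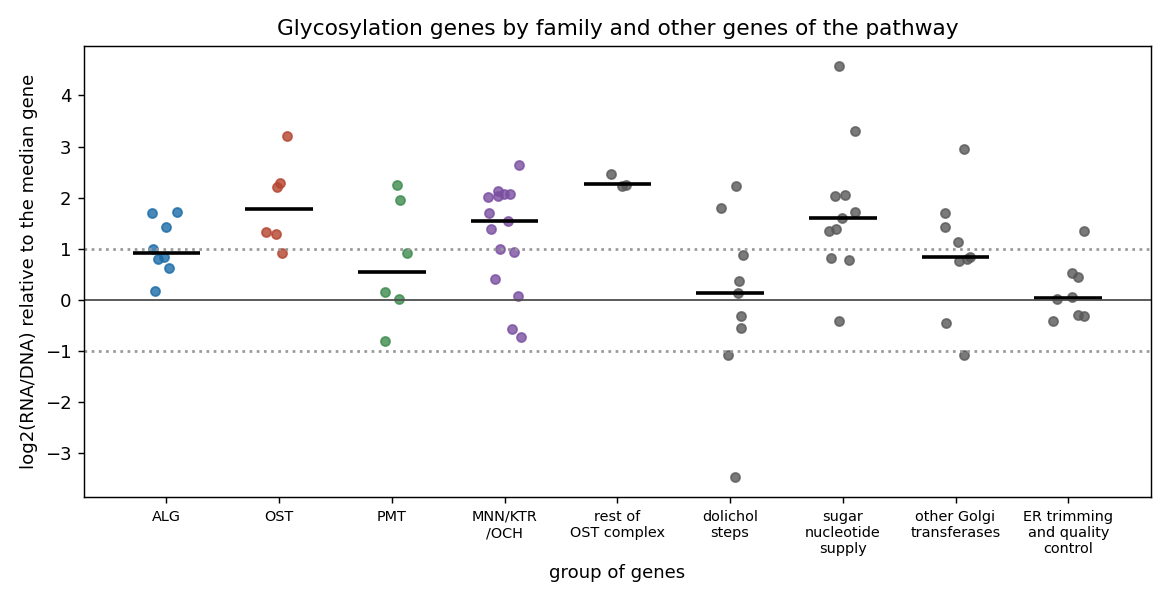
Log2(RNA/DNA) relative to the median gene (vertical axis, means of 2 arrays) of the genes of each family (colour) and of 5 other lists of the pathway (grey). Points are genes, spread sideways for visibility, black bars are medians and dotted lines the threshold of 1 in each direction. Medians run from 0.03 for trimming and quality control to 2.26 for the rest of the transferase complex, and PSA1 at 4.57 and SRT1 at -3.48 are the extremes.

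Other secretory genes are given for scale, beside the 19 of 35 above, 0 below and median of 1.30 here. Among 35 SEC genes, which act in translocation and vesicle transport and include SEC53 and SEC59, 23 were called above and 1 below, with a median of 1.56. Among 43 VPS genes, which sort proteins to the vacuole, 9 were called above and 7 below, with a median of 0.27. The SEC shares are 65.7% above and 2.86% below and the VPS shares 20.9% and 16.3%, beside 28.2% and 31.2% of all genes. No test was made between these lists.

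Some of the 35 genes lie close together on the chromosome, by gene order in RefSeq assembly GCF_000146045.2 (R64). PMT1 and PMT5 are direct neighbours on chromosome IV with 0 genes between them, and PMT1 exceeded PMT5 by 1.97 on array 1 and 1.95 on array 2. MNN5 and MNN11 on chromosome X, with 2 genes between them, stood at 0.996 and 2.64. KTR6 and MNN9 on chromosome XVI and OST2 and KTR1 on chromosome XV, also with 2 genes between them, were all called above. KTR6 and MNN9 overlapped between arrays. No other pair lay within 5 genes of each other.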

How the data were processed

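The submitters' processing notes name Agilent Feature Extraction 10.5.1.1. The deposited intensity values had a fitted spatial background subtracted, per the file headers. Gradient-corrected signals are the deposited processed intensities, which also had a fitted multiplicative surface divided out, per the file headers. No dye normalization was recorded, dyes were not swapped, per the labels, and both arrays lay on 1 slide. The genome build is not given in the sources used here, and no coordinates are printed.

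Spots had to have DNA well above background on both arrays, with no saturation or non-uniformity flag in either channel, which left 43721 of 43792 gene spots and 6250 genes. RNA under 3 SD of the 153 negative control spots was raised to that floor. Ratios are medians of log2(RNA/DNA) over spots, minus the array's median over genes. All genes were fitted in limma 3.58.1 in R 4.3.3 (an intercept, an untrended empirical Bayes prior, Benjamini-Hochberg adjustment). Spot tables were handled in Python 3.11.15 with numpy 2.4.6 and pandas 2.3.3, and plots made with matplotlib 3.10.9. The fit was also tested on simulated data with known shifts. There 6050 of 6250 genes had no shift, whereas here 5896 had an adjusted p under 0.05 in limma. The simulation therefore does not measure how reliable the calls are.

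The members and lists were chosen with earlier results of these data known. Named were all members, all listed pathway genes and the strain markers. Of 40 listed pathway genes, 3 were matched by RefSeq locus tag, and the 6 ALG, PMT and MNN genes under other names were added after the files were seen. Alternatives changed the signal, reference channel, centring, normalization, spot summary, spot filter, prior, thresholds and arrays used.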

Additional observations from a re-analysis of the deposited data

How the results depend on the processing

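No paired analysis was possible because both arrays belong to 1 group. Of the 35 genes, 24 kept their side of the median gene and their call under all 9 alternatives run per gene. The 19 genes called above became 10 at a log2 threshold of 2 and 30 with the adjusted p alone, and between 19 and 20 with either array left out, where calls rest on the threshold without a test. By group, a threshold of 2 gave 0 ALG, 3 OST, 1 PMT and 6 Golgi genes above. The adjusted p alone gave 8 ALG, 6 OST, 4 PMT and 12 Golgi genes above. Genes called below numbered 1 with the RNA channel alone (a Golgi gene, KTR2), 1 without genes at the floor (PMT3, at -1.02), and 3 with the adjusted p alone (1 PMT and 2 Golgi genes). Other pathway genes gave 9 above and 1 below at a threshold of 2, and 28 and 10 with the adjusted p alone. Of all genes, 12.4% lay above and 20.4% below at a threshold of 2, and 47.1% and 47.2% with the adjusted p alone. The counts by group are to be read beside these shares.

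Leaving out genes at the floor moved the centre, shifting all ratios by -0.19. The group medians were then 0.72 (ALG), 1.57 (OST), 0.34 (PMT) and 1.35 (Golgi). With the RNA channel alone they were 0.96, 2.18, 1.64 and 1.72. With gradient-corrected signals they were 0.93 for ALG, 0.59 for PMT and 1.62 for Golgi, and the ALG median was 0.93 with the mean over spots.

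Some genes changed side of the median gene. Without genes at the floor these were ALG11 (-0.0198), PMT5 (-0.19), PMT6 (-0.0399), KTR5 (-0.13), SEC59 (-0.0647), CWH41 (-0.19) and YDR221W (GTB1, -0.15). Gradient-corrected signals gave -0.0181 for PMT5 and -0.0062 for CWH41, and the mean over spots gave -0.0470 and -0.0045 for these genes. PMT5 stood at -1.1e-05 when all spots were used. CWH41 ran from -0.0151 to 0.0299 when either array was left out. With the RNA channel alone KTR5 stood at -0.52, OCH1 at -0.0510, SEC59 at -0.23, RER2 at 0.26, MNS1 at -0.33, MNL1 at 0.53 and YDR057W (YOS9) at -0.27. MNN5 passed the threshold with the mean over spots, at 1.004, and on array 1 alone, at 1.03. With the RNA channel alone 19 other pathway genes were called above and 2 below, beside 28.9% and 29.9% of all genes. Besides the changes given earlier, QRI1 (0.75) and MNT2 (0.86) then lost their call, and MNT4 was called below (-1.35). GNA1 (1.26), PCM1 (1.33), ANP1 (1.40) and GNT1 (1.18) were then called above. MNT2 also lost its call without genes at the floor, at 0.94. The cause of these changes was not tested beyond the shift given.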
